A study of Homo sapiens with 17 samples.

Results

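The forkhead family is a large group of transcription factors that bind DNA through a shared winged-helix domain. The 40 genes described here are its members other than the 3 FOXA genes: FOXB1, FOXB2, FOXC1, FOXC2, FOXD1 to FOXD4, FOXE1, FOXE3, FOXF1, FOXF2, FOXH1, FOXI1 to FOXI3, FOXJ1 to FOXJ3, FOXK1, FOXK2, FOXL1, FOXL2, FOXM1, FOXN1 to FOXN4, FOXO1, FOXO3, FOXO4, FOXO6, FOXP1 to FOXP4, FOXQ1, FOXR1, FOXR2 and FOXS1. They were chosen by family and not by a measured value, though with earlier results of these data known. They are 40 of 19974 protein-coding genes on chromosomes 1 to 22 and X in the RefSeq table of GRCh38.p14. A peak was counted for a gene when its summit lay inside the gene or within 50 kb of either end. By that rule 460 listed peaks fell near a forkhead gene.

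The peaks come from ChIP-seq with a Flag antibody in U2OS, a human osteosarcoma line, in stable lines that carry a Tet-on construct and were given doxycycline at 500 ng/ml for 4 days. The 16 factor samples form 8 groups with 2 biological replicates in each: full-length FOXA1, FOXA2 and FOXA3, each of these with its C-terminal domain (CTD) deleted, full-length SOX2, and SOX2 joined to the FOXA2 CTD (the fusion). There was also 1 input sample. Expression from a Tet-on construct is not the level of a native gene, and whether each line is a single clone is not given in the sources used here. Both replicates of a group enter 1 combined peak list, so a difference between groups has no replicate check and no test was run. Sequencing depth is unknown. The lists hold 37219 (FOXA1 full length), 50105 (FOXA1 CTD-deleted), 44637 (FOXA2 full length), 52866 (FOXA2 CTD-deleted), 6082 (FOXA3 full length), 6763 (FOXA3 CTD-deleted), 1365 (SOX2) and 7844 (fusion) peaks on chromosomes 1 to 22 and X. Their limits differ too: the largest irreproducible discovery rate (IDR, a measure of how well peak ranks match between replicates) runs from 0.01 in the FOXA3 CTD-deleted list to 0.92 in the fusion list. Both FOXA3 lists also hold 5012 identical rows, 81.8% of the full-length list. Among these are 11 of the 12 full-length FOXA3 peaks near members. At such a row the FOXA3 lists are not separate observations.

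FOXA proteins are pioneer factors, which can bind their sites in closed chromatin. In endoderm and its organs they act early, and several other forkhead genes act in the same tissues. FOXF1 and FOXL1 are made in the mesenchyme beside the gut epithelium, downstream of hedgehog signals. FOXO proteins are held in the cytoplasm by insulin signalling through AKT, FOXM1 drives mitotic genes, and FOXP proteins are mostly repressors that pair through a leucine zipper. Most forkhead domains recognise closely related DNA letters, so 1 member can bind near another, and the peak lists were read here for such positions. A peak near a gene gives a position only. Expression of these genes was not analysed here.

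Sequences before the gene starts are shown for the members with peaks of more than 1 list over part of the 250 bases before a start. RefSeq's promoter table for GRCh38.p14 holds 42 starts for 31 of the 40 members. The table has no entry for FOXC2, FOXE3, FOXF1, FOXH1, FOXJ1, FOXL1, FOXM1, FOXN2 and FOXS1. Each line gives the 250 bases before a start, 5′ to 3′ along the gene, and capitals mark the bases that lie inside the peaks of every list with a peak there. FOXJ3, FOXP1 and FOXO6 had such peaks in the FOXA1 full-length, FOXA2 full-length and FOXA2 CTD-deleted lists, and FOXP2 in both FOXA2 lists. The FOXP2 start lies inside the gene.
FOXJ3, chr1:42335881-42336130, minus strand: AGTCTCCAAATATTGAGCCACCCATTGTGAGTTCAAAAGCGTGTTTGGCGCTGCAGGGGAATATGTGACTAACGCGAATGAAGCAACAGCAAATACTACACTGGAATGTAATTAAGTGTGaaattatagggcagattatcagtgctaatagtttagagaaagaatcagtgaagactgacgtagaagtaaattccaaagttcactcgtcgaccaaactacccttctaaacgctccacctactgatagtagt
FOXP1, chr3:71583729-71583978, minus strand: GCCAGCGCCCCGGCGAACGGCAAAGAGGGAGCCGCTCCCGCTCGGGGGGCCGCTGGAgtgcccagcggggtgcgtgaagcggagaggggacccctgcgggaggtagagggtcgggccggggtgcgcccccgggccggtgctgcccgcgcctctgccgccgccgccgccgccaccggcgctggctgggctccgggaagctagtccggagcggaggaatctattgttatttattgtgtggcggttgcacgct
FOXO6, chr1:41361184-41361433, plus strand: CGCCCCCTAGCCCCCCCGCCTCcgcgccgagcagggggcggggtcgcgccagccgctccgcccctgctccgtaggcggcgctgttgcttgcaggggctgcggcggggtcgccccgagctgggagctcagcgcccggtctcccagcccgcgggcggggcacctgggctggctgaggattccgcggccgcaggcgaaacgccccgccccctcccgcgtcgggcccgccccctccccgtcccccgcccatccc
FOXP2, chr7:114414565-114414814, plus strand: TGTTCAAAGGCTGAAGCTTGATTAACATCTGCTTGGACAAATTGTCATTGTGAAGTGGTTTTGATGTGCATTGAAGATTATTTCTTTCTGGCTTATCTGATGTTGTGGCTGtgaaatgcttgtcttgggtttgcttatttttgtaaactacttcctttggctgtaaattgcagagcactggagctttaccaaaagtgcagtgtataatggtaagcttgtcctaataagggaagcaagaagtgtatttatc

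These 4 sequences range from AT-rich to GC-rich: 37.6% of the 250 bases are G or C at FOXP2, 40.8% at FOXJ3, 74% at FOXP1 and 81.6% at FOXO6, against a median of 58.4% over all promoters in the table. The capitals cover 120 bases at FOXJ3, 111 at FOXP2, 57 at FOXP1 and 22 at FOXO6. In each case they lie at the far end from the start. None of the 4 holds TGTTTAC or TGTTTGC, a pair of core forkhead motifs, on either strand. TGTTTAC was found before 1 member start and TGTTTGC before another, FOXD4, and neither stretch had a peak in any of the 8 lists. Over all 34961 promoters in the table TGTTTAC is in 2.98%, TGTTTGC in 3.22%, and at least 1 of them in 6.08%. The TGTTTAC match, in capitals below, lies before an inner start of FOXP1.
FOXP1, inner start, chr3:71245078-71245327, minus strand: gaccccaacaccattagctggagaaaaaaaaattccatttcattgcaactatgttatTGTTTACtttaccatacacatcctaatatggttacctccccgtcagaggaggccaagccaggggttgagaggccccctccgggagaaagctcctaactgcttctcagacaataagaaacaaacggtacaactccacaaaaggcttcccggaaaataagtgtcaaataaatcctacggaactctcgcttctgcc

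Nearly all forkhead genes had a FOXA1 or FOXA2 peak within 50 kb, but so did most coding genes. In the FOXA1 full-length list 34 of 40 members had a peak (85%, against 71.5% of all coding genes). After deletion of the FOXA1 CTD it was 29 (72.5%, against 69.8%). The FOXA2 full-length list reached 32 members (80%, against 74.2%) and the FOXA2 CTD-deleted list 36 (90%, against 76.1%). FOXA3 peaks lay near 10 members in the full-length list (25%, against 24.2%) and near 13 in the CTD-deleted list (32.5%, against 27.3%). SOX2 had no peak near any member, and only 0.891% of coding genes had one. The fusion had a peak near 11 members (27.5%, against 25.6%). Of the 8 lists, the FOXA1 full-length and FOXA2 CTD-deleted ones stood furthest above their background, at 85% and 90% of members. The others differed from it by less than 6 percentage points.

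**Figure D1:**
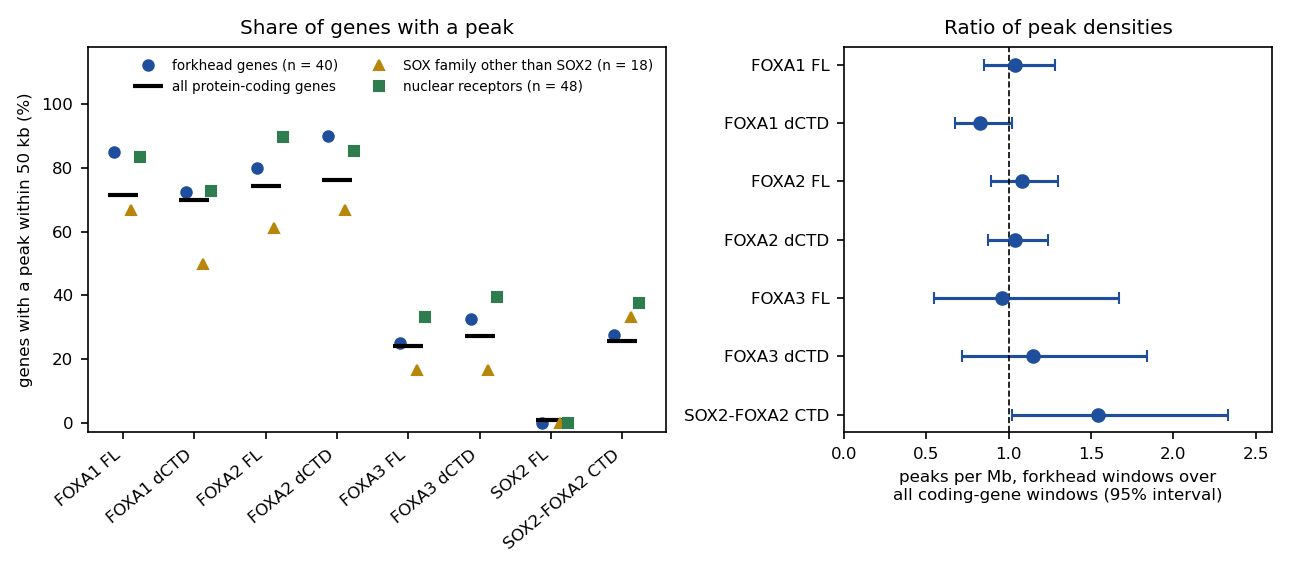
Left: percent of genes with a peak within 50 kb in each of the 8 combined lists, for the 40 forkhead genes (circles), 18 other SOX genes (triangles), 48 nuclear receptors (squares) and all coding genes (bars). Right: peaks per Mb in forkhead windows divided by that in all coding-gene windows, with 95% Wilson intervals that cover counting error only. The SOX2 list is left out on the right because it had 0 peaks there. The circles sit furthest above the bars for FOXA1 full length (85% against 71.5%) and FOXA2 CTD-deleted (90% against 76.1%).

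Peaks were also counted per length of DNA, since long genes have long windows. The 40 windows merge into 36 stretches of 6.38 Mb, because FOXC2, FOXF1 and FOXL1 share DNA on chromosome 16, FOXF2 and FOXQ1 on chromosome 6, and FOXD2 and FOXE3 on chromosome 1. These stretches held 89 and 88 peaks of the FOXA1 full-length and CTD-deleted lists, 108 and 124 of the corresponding FOXA2 lists, 12 and 17 of the FOXA3 lists, none of SOX2 and 22 of the fusion. Relative to all coding-gene windows, the density of peaks was 1.04 (95% interval 0.849 to 1.28) for FOXA1 full length and 0.828 (0.672 to 1.02) for FOXA1 CTD-deleted. It was 1.08 (0.891 to 1.3) and 1.04 (0.872 to 1.24) for FOXA2, and 0.957 (0.548 to 1.67) and 1.15 (0.718 to 1.84) for FOXA3. All 6 FOXA intervals include 1. The fusion's ratio of 1.54 (1.02 to 2.33) lay above 1, but 7 of its 22 peaks lay near FOXK1. Without FOXK1 the ratio was 1.08 (0.657 to 1.79). It was 0.887 (0.711 to 1.11) in the list of the first fusion replicate and 0.897 (0.435 to 1.85) with windows of 10 kb.

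Other transcription factor families, chosen for comparison, lay on both sides of the coding background. That background was 71.5% of coding genes for full-length FOXA1 and 76.1% for CTD-deleted FOXA2. Values below are for these lists unless another is named. Of 48 nuclear receptors, 83.3% had a peak of full-length FOXA1 and 85.4% one of CTD-deleted FOXA2. The 18 SOX genes other than SOX2 gave 66.7% in each. Among the targets and partners of members, 24 FOXO pathway genes had a peak in 70.8% and 79.2% of cases in these lists. The 10 mitotic targets of FOXM1 had a peak in 10 and in 7 cases. Of 8 hedgehog pathway genes 5 and 7 had a peak in the same order, and of 11 genes of the nodal pathway around FOXH1, 10 and 8. Other lists gave other values. With CTD-deleted FOXA1, 4 of the 10 FOXM1 targets had a peak (40%, against 69.8% of coding genes). With full-length FOXA2, 89.6% of nuclear receptors had one, against 74.2% of coding genes and 80% of forkhead members. The FOXA1 gene itself had 2, 1 and 1 peaks in the FOXA1 full-length, FOXA1 CTD-deleted and FOXA2 full-length lists and 1 each in the SOX2 and fusion lists. FOXA2 had 3 peaks in the FOXA2 CTD-deleted list, and FOXA3 had 1 peak in the FOXA1 CTD-deleted list.

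The family's peaks were unevenly spread over its members. Counts are given below with full-length protein first and CTD-deleted protein second. FOXP1, FOXJ3, FOXP2 and FOXK1 held 187 of 475 pairings of a peak with a member (39.4%), a peak in overlapping windows being paired with each gene. Gene spans run from 1.3 to 629 kb. Over the 40 members the rank correlation of window length with peak number was 0.585 in the FOXA1 full-length list, 0.363 in the FOXA1 CTD-deleted list, 0.529 and 0.482 for FOXA2 and -0.0714 for the fusion, as a description. Among the 16 members with spans of 10 kb or more, 16 had a full-length FOXA1 peak and 16 a CTD-deleted FOXA2 peak (100%, against 76.3% and 80.5% of coding genes of that size). The 24 shorter members had one in 18 and 20 cases (75% and 83.3%, against 59.5% and 64.8%). For CTD-deleted FOXA1 it was 12 of the longer members (75%, against 75.2%) and 17 of the shorter (70.8%, against 56.2%). For full-length FOXA2 it was 14 (87.5%, against 78.5%) and 18 (75%, against 63.4%).

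**Figure D2:**
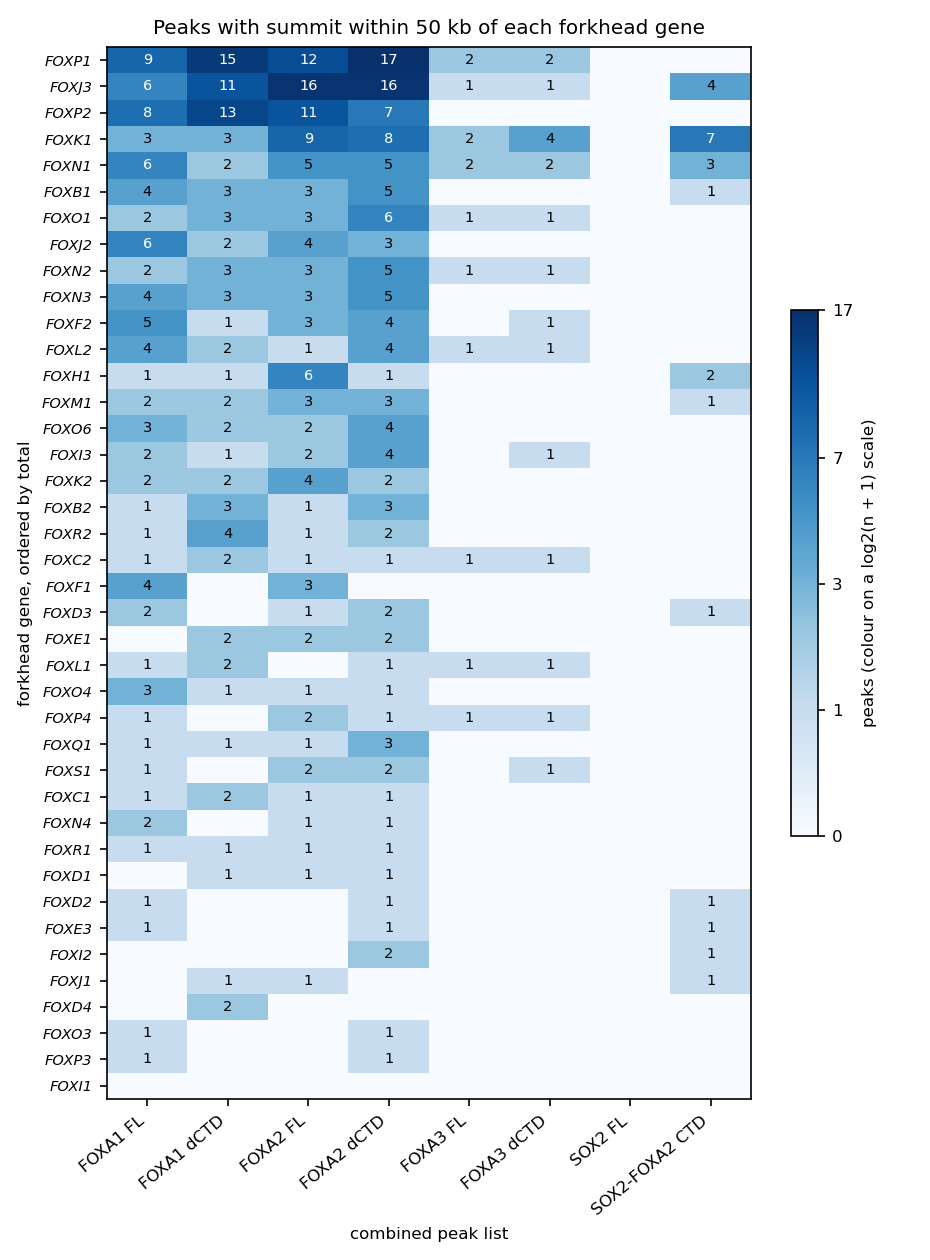
Number of peaks with a summit within 50 kb of each of the 40 forkhead genes (rows, ordered by total) in each of the 8 combined lists (columns); the colour follows log2(n + 1) and empty cells are 0. FOXP1, FOXJ3, FOXP2 and FOXK1 lead, the SOX2 column is empty, and FOXI1 has no peak in any list.

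The FOXP genes were led by FOXP1 and FOXP2, a pair of long genes known from work on lung, heart and brain. FOXP1 (chromosome 3, 70954708 to 71583978) had 9 and 15 peaks in the FOXA1 full-length and CTD-deleted lists, 12 and 17 in the FOXA2 lists, and 2 in each FOXA3 list. No SOX2 or fusion peak lay near it. Of the 57 FOXP1 peaks, 49 lay inside the gene, and they merged into 26 sites, 4 of them in all 4 FOXA1 and FOXA2 lists. A FOXP1 site inside the gene at 71208057 to 71209224 was 1 of only 2 family sites in all 6 FOXA lists. Its strength, the lower −log10 p of both replicates as the authors give it, was 9.17 and 3.23 for FOXA1, 2.44 and 3.62 for FOXA2 and 7.02 in both FOXA3 lists. The FOXA3 value is that of an identical row in both lists. Strengths depend on depth and are not compared between lists.

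FOXP2 (chromosome 7, 114086327 to 114693765), known for its part in speech and language, had 8 and 13 FOXA1 peaks and 11 and 7 FOXA2 peaks. It had none in the FOXA3, SOX2 and fusion lists. Of 24 FOXP2 sites, 1 was in all 4 FOXA1 and FOXA2 lists, at 114502126 to 114503354. FOXP4 was reached by 1 and 0 FOXA1 peaks, 2 and 1 FOXA2 peaks and 1 peak in each FOXA3 list. That FOXA3 peak, inside FOXP4 at 41568433 to 41569200 on chromosome 6, was the strongest family peak of both FOXA3 lists (16.7 in each, rank 200 and rank 308). It is an identical row in both. FOXP3, the factor of regulatory T cells, had only 1 FOXA1 full-length and 1 FOXA2 CTD-deleted peak. Both lay nearer to another gene, SYP and PPP1R3F.

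Among the broadly expressed members, FOXJ2, FOXJ3, FOXK1, FOXK2, FOXM1, FOXN2 and FOXN3, all 7 had a peak in each FOXA1 and FOXA2 list, as did 53.2% of coding genes. Each of the 7 spans more than 10 kb, while the 53.2% covers coding genes of every size. Of coding genes of 10 kb or more, 75.2% to 80.5% had a peak in each single list of FOXA1 or FOXA2. Together the 7 members held 25 and 26 FOXA1, 42 and 42 FOXA2, 4 and 6 FOXA3, 0 SOX2 and 12 fusion peaks. FOXJ3 (chromosome 1, 42176548 to 42335880) had 6 and 11 peaks in the FOXA1 lists, 16 and 16 in the FOXA2 lists, 1 in each FOXA3 list and 4 in the fusion list. A site in all 4 FOXA1 and FOXA2 lists lay 10.1 kb beyond the gene's end, at 42165020 to 42168087, with strengths of 12.3 and 14.5 for FOXA1 and 14.5 and 6.17 for FOXA2. This FOXJ3 peak ranked 87 among the peaks of the FOXA2 full-length list, but GUCA2A was the nearer gene. At the FOXJ3 start, in the sequence printed above, summits lay 0.229 kb upstream for full-length FOXA1, and 0.221 and 0.416 kb upstream in the FOXA2 lists. Both FOXA3 lists instead had a peak, an identical row, 4.38 kb upstream, where both CTD-deleted lists of FOXA1 and FOXA2 also had one. None of the 4 fusion peaks near FOXJ3 overlapped a FOXA peak, where 37% of all fusion sites did.

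FOXK1 (chromosome 7, 4682295 to 4771442), a repressor linked to metabolism and autophagy, was the member with most fusion peaks. It had 3 and 3 FOXA1 peaks, 9 and 8 FOXA2 peaks, 2 and 4 FOXA3 peaks and 7 fusion peaks. A site 49.1 kb upstream, just inside the window, was in 5 lists, with strengths of 7.81 and 18.7 for FOXA1, 3.46 and 7.47 for FOXA2 and 6.15 for FOXA3 CTD-deleted. The nearest coding gene there was LOC124901580. Of the 7 fusion peaks, 1 lay 0.177 kb upstream of the FOXK1 start and covered its promoter stretch, and the strongest (3.94) lay 34.3 kb downstream, nearer to RADIL. Of these 7 fusion peaks 2 overlapped a peak of a FOXA list. FOXK2 had a peak 0.593 kb upstream for full-length FOXA1. A site inside FOXK2 had a strength of 15 in the FOXA1 CTD-deleted list (rank 773) and of 9.78 in the FOXA2 full-length list (rank 379).

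**Figure D3:**
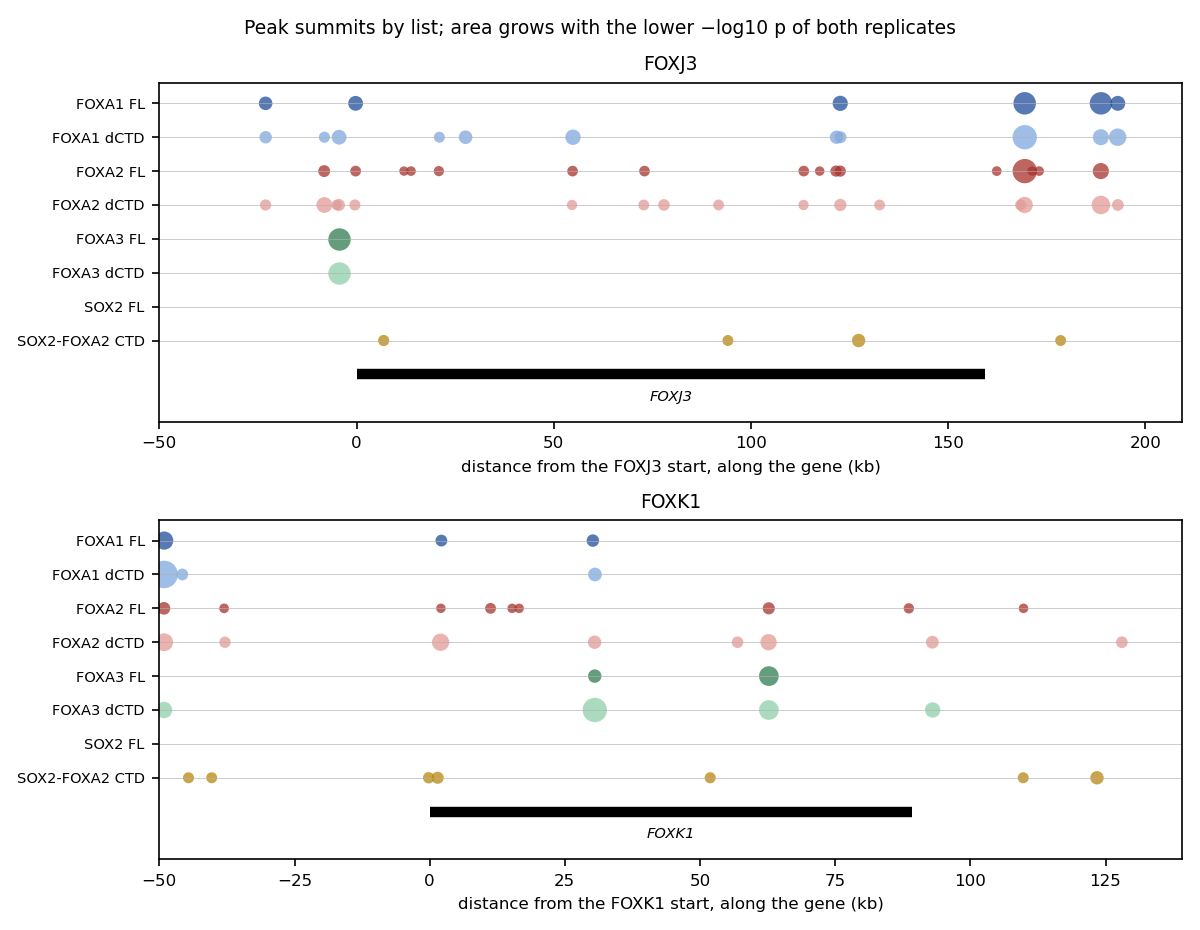
Peak summits near FOXJ3 (top) and FOXK1 (bottom) in each of the 8 combined lists, by distance in kb from the gene's start along its direction; black bars are the genes, each window reaches 50 kb beyond them, and the area of a point grows with the lower −log10 p of both replicates. At FOXJ3 large points lie 10.1 kb beyond its end in the 4 FOXA1 and FOXA2 lists, and the 7 fusion points at FOXK1 are small.

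FOXJ2 had 6 and 2 FOXA1 and 4 and 3 FOXA2 peaks, and its site inside the gene at 8038654 to 8039529 on chromosome 12 was in all 4 lists. FOXN2 had 2 and 3 FOXA1, 3 and 5 FOXA2 and 1 and 1 FOXA3 peaks. FOXN3, known as a cell-cycle checkpoint repressor, had 4 and 3 FOXA1 and 3 and 5 FOXA2 peaks, and all 15 had it as the nearest coding gene. Its site 41.3 kb upstream was in all 4 lists. For FOXM1 the 11 peaks (2 and 2 FOXA1, 3 and 3 FOXA2, 1 fusion) all lay nearer to another coding gene, such as TULP3.

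Of the insulin-regulated members, FOXO1 (chromosome 13, 40555667 to 40666641) had 2 and 3 FOXA1, 3 and 6 FOXA2 and 1 and 1 FOXA3 peaks. The FOXA3 peak, an identical row in both lists, lay 15 kb downstream of FOXO1 with a strength of 11.7. Both FOXA2 lists had a peak there as well, of 1.78 and 2.96. FOXO6 had 3 and 2 FOXA1 and 2 and 4 FOXA2 peaks. Its peak 42 kb downstream, at 41425239 to 41426077 on chromosome 1, was the strongest family peak of the FOXA1 CTD-deleted list (20.4, rank 240). FOXO4 had 3, 1, 1 and 1 peaks in the same order, each nearer to SNX12 or NLGN3. FOXO3 had 1 site, 85 kb into the gene, in the FOXA1 full-length and FOXA2 CTD-deleted lists.

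The mesenchymal cluster on chromosome 16 holds FOXF1 (86510527 to 86515422), FOXC2 (86566829 to 86569728) and FOXL1 (86578549 to 86583478). FOXF1 was the only member with a peak in both full-length FOXA1 and FOXA2 lists and in neither CTD-deleted list (2.5% of members, against 1.61% of coding genes). No member had the opposite pattern (1.9% of coding genes). Full-length FOXA1 had 4 peaks there and full-length FOXA2 had 3. Of these, 1 FOXA1 peak had FOXC2 and 1 FOXA2 peak had MTHFSD as the nearest coding gene. Shared sites of these full-length factors lay 27.9 kb (86482458 to 86482810) and about 1.47 kb (86508641 to 86509477) from the lower-coordinate end of FOXF1. Their strengths were 3.45 and 3.45 for FOXA1 and 2.27 and 1.72 for FOXA2. Beyond FOXL1 the lists differed. A site 7.13 kb past the higher-coordinate end of FOXL1, at 86590291 to 86590922, was in the FOXA1 CTD-deleted (4.18), FOXA2 CTD-deleted (9.73) and both FOXA3 lists (6.99 in each, an identical row), and in neither full-length FOXA1 nor full-length FOXA2 list. That peak also lies in the window of FOXC2. With the stricter IDR limit of each pair applied to both of its lists (0.0501 for FOXA1, 0.25 for FOXA2), FOXF1 kept 1 FOXA1 and 2 FOXA2 full-length peaks. These limits are those of the CTD-deleted lists, which lose no peak by them, so their lack of a peak near FOXF1 could not change.

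**Figure D4:**
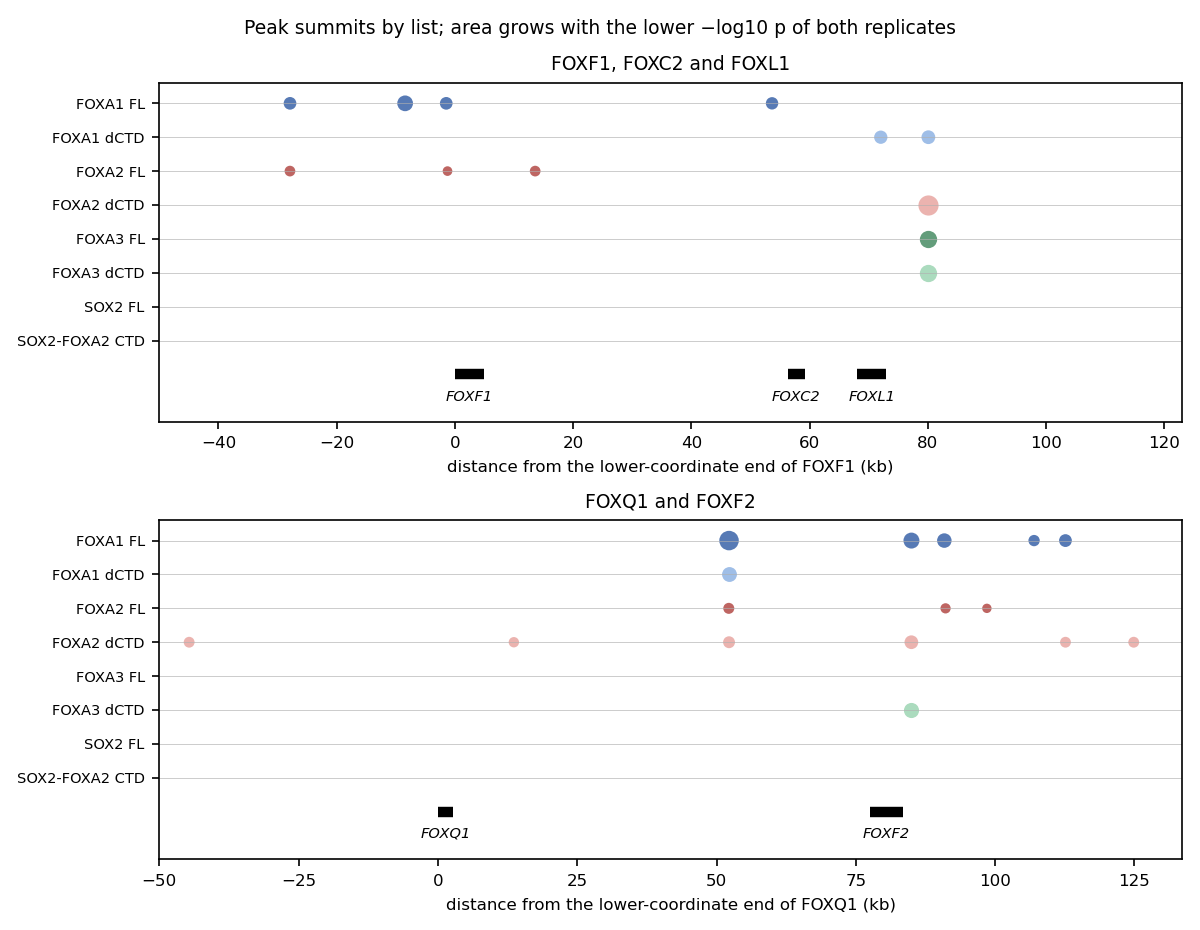
Peak summits in the 8 combined lists over the windows of FOXF1, FOXC2 and FOXL1 (top) and of FOXQ1 and FOXF2 (bottom), by distance in kb from the lower-coordinate end of the first gene; black bars are the genes and the area of a point grows with the lower −log10 p of both replicates. Points left of FOXC2 come from the full-length FOXA1 and FOXA2 lists only, and those right of FOXC2 from the CTD-deleted and FOXA3 lists only.

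FOXF2 and FOXQ1 share part of their windows on chromosome 6. FOXF2, a mesenchymal factor like FOXF1, had 5 and 1 FOXA1, 3 and 4 FOXA2 and 0 and 1 FOXA3 peaks. Its site at 1363948 to 1364971, 25.2 kb upstream, was in all 4 FOXA1 and FOXA2 lists (9.08, 4.99, 2.44 and 2.96) and is, in all but the FOXA2 CTD-deleted list, the site that puts FOXQ1 within the 50 kb limit. FOXQ1 had 1, 1, 1 and 3 peaks in these lists. FOXC1 had 1, 2, 1 and 1 peaks, among them a site 11.9 kb upstream in 3 lists. FOXS1 had 1, 0, 2 and 2 peaks and 1 in the FOXA3 CTD-deleted list, and none of its 6 peaks had it as the nearest coding gene. FOXD1, a factor of kidney stroma, had 0, 1, 1 and 1, and FOXD2 had 1, 0, 0 and 1, with 1 fusion peak 5.33 kb upstream.

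The ectodermal and placodal members were led by FOXN1, the factor of thymic epithelium and hair, with 6 and 2 FOXA1, 5 and 5 FOXA2, 2 and 2 FOXA3 and 3 fusion peaks. A site 2.07 kb downstream of FOXN1, at 28540625 to 28541227 on chromosome 17, was in 5 FOXA lists (10.2 in each FOXA3 list, an identical row). The FOXA1 CTD-deleted list had no peak over it but had one just beside it, at 28541381 to 28541827 (4.01). FOXI3 had 2, 1, 2 and 4 FOXA1 and FOXA2 peaks and a site 27.2 kb upstream, at 88478693 to 88480613 on chromosome 2, in all 4 FOXA1 and FOXA2 lists (6.15, 13.8, 5.97 and 9.54) and in the FOXA3 CTD-deleted list (5.21). FOXE1, a thyroid factor, had no peak of full-length FOXA1 and 2 in each of the other FOXA1 and FOXA2 lists. FOXE3, which acts in the lens, had 1 peak in the FOXA1 full-length, FOXA2 CTD-deleted and fusion lists, and FOXI2 had 2 FOXA2 CTD-deleted peaks and 1 fusion peak. FOXI1, the ionocyte factor, was the only member without a peak in any list (2.5%, against 10.8% of coding genes). Its closest peaks lay 102 kb away, in the FOXA1 full-length and FOXA2 CTD-deleted lists.

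Of the early and neural members, FOXB1 had 4 and 3 FOXA1, 3 and 5 FOXA2 and 1 fusion peak. A FOXB1 site 28.1 kb downstream was in both CTD-deleted lists, at 8.41 for FOXA1 and 15.3 for FOXA2, and in neither full-length list. It was the strongest family peak of the FOXA2 CTD-deleted list (rank 342). FOXB2 had 1, 3, 1 and 3 peaks, with a site 38.8 kb upstream in all 4 lists. FOXD3, known from the neural crest, had 2, 0, 1 and 2 peaks and 1 fusion peak, and FOXN4 had 2, 0, 1 and 1, all inside the gene. FOXD4 had 2 peaks, both in the FOXA1 CTD-deleted list. FOXH1, the partner of SMADs in nodal signalling, had 1, 1, 6 and 1 peaks and 2 fusion peaks, all nearer to other genes.

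FOXL2, the ovarian factor, had 4, 2, 1 and 4 FOXA1 and FOXA2 peaks and 1 in each FOXA3 list, and holds the second family site found in all 6 FOXA lists. It lies 17.3 kb upstream, at 138963746 to 138965332 on chromosome 3, nearer to FOXL2NB. Its strengths were 5.46 and 10.9 for FOXA1, 3.25 and 6.78 for FOXA2 and 10 in each FOXA3 list, again an identical row. FOXJ1, the factor of motile cilia, had 1 peak in the FOXA1 CTD-deleted, FOXA2 full-length and fusion lists, and none of them had FOXJ1 as nearest gene. FOXR1 had 1 site, 43.5 kb upstream, in all 4 FOXA1 and FOXA2 lists and FOXR2 had 1, 4, 1 and 2 peaks downstream.

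Few members had a peak at a gene end, at most 7 in a list. Their share lay somewhat above the coding share in the FOXA1 full-length and both FOXA2 lists and below it in the others. On such counts no trait of the family is read from this. Within 1 kb of an end, 6 members had a FOXA1 full-length peak (15%, against 11.3% of coding genes) and 2 a FOXA1 CTD-deleted peak (5%, against 6.33%). For FOXA2 it was 7 (17.5%, against 12.9%) and 6 (15%, against 11.8%). No member had a FOXA3 or SOX2 peak at an end, where 1.94%, 2.24% and 0.16% of coding genes had one. FOXK1 alone had a fusion peak there (2.5%, against 4.48%). Over the 250 bases before a start, of 31 members in the promoter table, 5 had a peak of full-length FOXA1 over them (FOXJ3, FOXK2, FOXN3, FOXO6 and FOXP1) and none a FOXA1 CTD-deleted peak. Among 15812 coding genes in that table the shares were 8.66% and 2.09%. Full-length FOXA2 covered 5 (FOXJ3, FOXO6, FOXP1, FOXP2 and FOXP4) and CTD-deleted FOXA2 4 of these, without FOXP4, against 7.63% and 6.48%. Out of 31 members, the 5, 5 and 4 in the FOXA1 full-length and both FOXA2 lists were again larger shares than those of coding genes, on few genes. FOXA3 covered none (1.32% and 1.63% of coding genes), and neither did SOX2 (0.152%). The fusion covered the FOXK1 promoter only (3.84% of coding genes).

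Deletion of the CTD went with fewer members near a FOXA1 peak and more near a FOXA2 peak, without a test. All coding genes moved the same ways, from 71.5% to 69.8% for FOXA1 and from 74.2% to 76.1% for FOXA2. For FOXA1, 25 members had a peak in both lists. Another 9 had one only with full-length protein (FOXD2, FOXD3, FOXE3, FOXF1, FOXN4, FOXO3, FOXP3, FOXP4 and FOXS1; 22.5%, against 11.4% of coding genes) and 4 only after deletion (FOXD1, FOXD4, FOXE1 and FOXJ1; 10%, against 9.69%). For FOXA2, 30 had a peak in both, 2 only with full-length protein (FOXF1 and FOXJ1; 5%, against 7.78%) and 6 only after deletion (FOXD2, FOXE3, FOXI2, FOXL1, FOXO3 and FOXP3; 15%, against 9.61%). For FOXA3, 10 had a peak in both and 3 only after deletion (FOXF2, FOXI3 and FOXS1; 7.5%, against 3.31%). FOXD2, FOXE3, FOXO3 and FOXP3 were thus reached by full-length FOXA1 and CTD-deleted FOXA2 only among these 4 lists, and FOXD2 and FOXE3 share those peaks. Members found in 1 list of the FOXA1 or FOXA2 pair had 1 or 2 peaks in it, except FOXF1 with 4 and 3.

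The FOXA1 difference changed sign when both FOXA1 lists were held to the stricter IDR limit of 0.0501. Then 19 members had a full-length peak (against 37.8% of coding genes) and 29 a CTD-deleted one (against 69.8%), with 5 in the full-length list only and 15 in the CTD-deleted list only. That limit is the CTD-deleted list's own and left 11445 full-length and 50105 CTD-deleted peaks. With equal numbers of the strongest peaks the sign stayed, at 34 and 26 members. It also stayed at a −log10 p of at least 5 in both replicates, at 19 and 16. Coding-gene shares with equal numbers or at this −log10 p are not given here. Whether coding genes move alike there is therefore not shown. At the common FOXA2 limit of 0.25 the counts were 29 and 36 (against 63.3% and 76.1%). The 5012 rows that are identical in both FOXA3 lists include 11 of the 12 family peaks of full-length FOXA3, and make up 81.8% of that whole list.

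**Figure D5:**
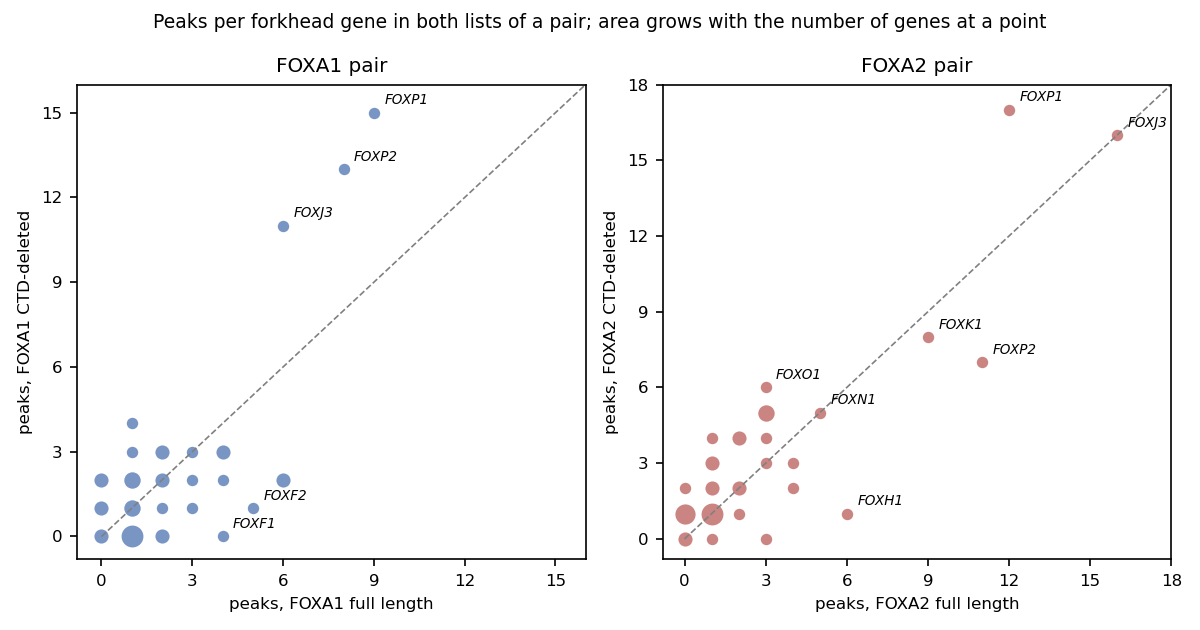
Peaks per forkhead gene in the full-length list (x axis) and the CTD-deleted list (y axis) of FOXA1 (left) and FOXA2 (right); the area of a point grows with the number of genes at it and the dashed line marks equal counts. FOXP1, FOXP2 and FOXJ3 lie above the line for FOXA1, FOXF1 lies on the x axis in both panels, and FOXH1 (6 and 1 peaks) lies below it for FOXA2.

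Single sites of FOXA1 and FOXA2 were often in 1 list of a pair only. Of the family peaks of full-length FOXA1, 36 of 89 overlapped a CTD-deleted peak (40.4%, 95% interval 30.9% to 50.8%), against 56% of all peaks of that list. The reverse share was 36 of 88 (40.9%, against 41.7%). For FOXA2 it was 50 of 108 (46.3%, against 51.3%) and 51 of 124 (41.1%, against 43.2%). The FOXA3 lists, which hold many identical rows, gave 12 of 12 (100%, against 94.4%) and 12 of 17 (70.6%, against 84.9%). After merging overlaps over the 8 lists the family windows held 253 sites, of which 144 were in 1 list only (56.9%, against 54.4% of all sites). In all 4 FOXA1 and FOXA2 lists there were 18 sites (7.11%, against 8.71%) and in all 6 FOXA lists 2 (0.791%, against 1.74%). By gene rather than by site, 24 members had a peak in all 4 FOXA1 and FOXA2 lists (60%, against 53.2%). Another count, over all 6 FOXA lists, gave 8: FOXC2, FOXJ3, FOXK1, FOXL2, FOXN1, FOXN2, FOXO1 and FOXP1 (20%, against 20.7%). FOXC2 is among them through peaks nearest to FOXL1 or MTHFSD. Only 1 peak, of full-length FOXA1, had FOXC2 as the nearest coding gene. Sites in both full-length FOXA1 and FOXA2 lists but in neither CTD-deleted list numbered 12 (4.74%, 95% interval 2.73% to 8.11%, against 2.08% of all sites), and sites with the opposite pattern 9 (3.56%, against 4.27%). The full-length lists have looser IDR limits (0.2 for FOXA1, 0.351 for FOXA2) than the CTD-deleted lists (0.0501 and 0.25). These site counts were not made at a common limit.

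The combined fusion list, with 7844 peaks, had peaks near 11 members that had none in the combined SOX2 list, with 1365 peaks. These were FOXB1, FOXD2, FOXD3, FOXE3, FOXH1, FOXI2, FOXJ1, FOXJ3, FOXK1, FOXM1 and FOXN1 (27.5%, against 24.9% of coding genes). The combined SOX2 list reached no member that the combined fusion list missed (0.18% of coding genes). With only the first replicate's list, 10 members had a SOX2 peak (25%, against 30.8%) and 31 a fusion peak (77.5%, against 67%). Of the 11 members named, FOXB1, FOXJ3, FOXK1 and FOXM1 had 1, 5, 1 and 2 SOX2 peaks in that list. Of the 22 fusion sites near members 5 were shared with a FOXA list (22.7%, 95% interval 10.1% to 43.4%), against 37% of all fusion sites. For 5 of the 11 members a fusion peak had the member itself as the nearest coding gene. The fusion list is the loosest, with IDR values up to 0.92. At the SOX2 list's limit of 0.1 neither list had a peak near any member, with 0.891% of coding genes reached by SOX2 and 0.401% by the fusion.

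The outermost counted gene was FOXQ1 in the FOXA1 lists and the FOXA2 full-length list, at 49.6, 49.6 and 49.5 kb, and FOXR1 in the FOXA2 CTD-deleted list at 43.4 kb. The first genes beyond it were FOXE1 (56.2 kb), FOXN4 (52.8 kb), FOXL1 (54.5 kb) and FOXD4 (57.8 kb). For SOX2 the nearest member was FOXJ3, 151 kb away. Not every counted peak lay closest to a forkhead gene: of the 460 peaks, 339 (73.7%) had a member as the nearest coding gene.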

How the data were processed

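Groups were taken from the sample titles. Per the submitters' processing notes, reads were checked with FastQC 0.10.1, trimmed with Trim Galore, aligned with Bowtie2 2.4.4 to hg38 and handled with SAMtools 0.1.18, MACS2 and deepTools 2.4.1; parameters are not given in the sources used here. Of 14 deposited peak lists, 4 are byte copies, and the other 10 were used: 8 combined lists in the 20-column IDR layout and the first-replicate lists of SOX2 and the fusion. The deposited values are the authors': a −log10 p per replicate, of which the lower is the strength, a −log10 IDR, and a score equal to 125 times log2 of 1 over the IDR. A score of 830 or more was taken as an IDR of at most 0.01. No read counts or coverage were used, so depth is unknown and intervals (95%, Wilson) cover counting error over peaks only. The extraction protocol gives the doxycycline as 500 ng/ul, the treatment label as 500 ng/ml.

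Summits were compared with RefSeq gene spans of GRCh38.p14, which is the build of the lists, with Python 3.11.15, pandas 2.3.3, numpy 2.4.6 and scipy 1.17.1. Sites are peaks of any combined list merged where they overlap by 1 bp, and the same 1 bp overlap counts as sharing. A promoter is the 250 bases before a RefSeq start. Upstream and downstream are given only for the 31 members whose strand the promoter table holds. Background shares are over 19974 coding genes, or 15812 in the promoter table. The genes named were the 10 members with most peaks, those with a peak within 1 kb of an end, the 2 strongest peaks of each list and members in 1 list of a pair. Others are given by counts, and the site positions given for them were picked after the values were seen. The members and the comparison lists were chosen with earlier results of these data known. The counting steps were tested on simulated peaks. Alternatives were IDR limits, window sizes, stricter overlap, the rows shared by both FOXA3 lists and the first-replicate lists.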

Additional observations from a re-analysis of the deposited data

Results flagged for a closer look

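The number of members with a peak changed by -5 from full-length to CTD-deleted FOXA1 (34 to 29) and by 4 for FOXA2 (32 to 36). The share of all coding genes moved the same ways, from 71.5% to 69.8% and from 74.2% to 76.1%. The opposite signs are thus not particular to the members. They were not tested, because each group has 1 combined list. The FOXA1 value changes sign at the common IDR limit of 0.0501, where coding genes had 37.8% and 69.8%. It does not with equal numbers of the strongest peaks, where it is -8, a setting without a coding-gene share here.

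Lists of the first replicate alone held peaks near members. The SOX2 list had 17 peaks near 10 members (25%, against 30.8% of coding genes), 5 of them near FOXJ3, where the combined SOX2 list had none. The fusion list had 78 peaks near 31 members (77.5%, against 67%), with 12 near FOXJ3, 9 near FOXK1, 7 near FOXP2 and 3 near FOXI1. No such list of the input was analysed here to set a background level.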

How the results depend on the processing

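Of 101 alternative values for 35 results, 65 stayed close to the value given, 33 moved and 3 changed side. No paired analysis was possible because each group has 1 combined list of both replicates, and leaving out a replicate was possible only through the first-replicate lists. At an IDR of at most 0.01 members with a peak numbered 8 for full-length FOXA1, 0 for full-length FOXA2 (which has no such peak anywhere), 13 for CTD-deleted FOXA2 and 0 for the fusion. The shares found in the other list became 75% for full-length and 14% for CTD-deleted FOXA1 and 0% for CTD-deleted FOXA2. The density and shared fraction of full-length FOXA2 and the share of the fusion had no value at that limit. Within 10 kb the members numbered 21 and 18 for FOXA1, 21 and 23 for FOXA2 and 3 for the fusion, so the fusion exceeded SOX2 by 3. Within 100 kb full-length FOXA3 reached 16. Where the member had to be the nearest coding gene, CTD-deleted FOXA1 kept 19 members and the fusion 5, a setting chosen after seeing the data. Without the rows shared by both FOXA3 lists, full-length FOXA3 reached 1 member, its density ratio was 1.72 and the share of CTD-deleted FOXA3 peaks found in the other list was 16.7%. First-replicate lists gave 10 members for SOX2 and 31 for the fusion. The fusion's density ratio went to 0 at an IDR of at most 0.01, to 0.897 within 10 kb and to 0.887 in the first replicate. At the stricter limit of a pair the difference in members was 10 for FOXA1 and 0 for the fusion. With equal numbers of the strongest peaks the fusion exceeded SOX2 by 1. At a −log10 p of at least 5 in both replicates, also chosen after seeing the data, the difference was 13 for FOXA2 and 0 for the fusion. With summits within 100 bp the FOXA1 shares were 29.2% and 29.5%. Within 2.5 kb of a gene end the members numbered 12 and 5 for FOXA1, 11 for full-length FOXA2, and 1 and 2 for FOXA3. Apart from the first-replicate lists and the stricter limits of pairs, the member counts above stand without a coding-gene share at the same setting. They describe the members only. The cause of the shifts was not tested.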
